A study of Rattus norvegicus with 15 samples.

Results

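The genes described here make and desaturate long-chain fatty acids: Acly, Me1, Acaca, Acacb, Fasn, Elovl6, Scd1, Scd2, Fads1, Fads2 and Mcat. Their mRNA was measured in the Roux limb (RL), the piece of jejunum that Roux-en-Y gastric bypass (RYGB) joins directly to the upper stomach, and in the matching intestinal segment of rats without a bypass. Members were all array probes outside the controls whose gene name in the deposited files was one of these symbols or Scd. The name Scd was taken in as a possible name of Scd1, and Scd2 entered the set only through it. This gave 18 probes for 11 genes, of 22503 probes with a gene name. A probe was tested where all 5 arrays of some group read it well above background. This left 16 of the 18, among 17029 tested probes of 13018 genes. The files call 3 probes Scd and 1 probe Scd1. By their accessions the 3 Scd probes belong to the gene that RefSeq now calls Scd2, and the Scd1 probe to the gene that RefSeq calls Scd, so the names Scd2 and Scd1 are used here for these 2 genes.

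Goto-Kakizaki (GK) rats are a non-obese strain, derived from Wistar stock by breeding, that develops type 2 diabetes spontaneously. The GK-S-30 group had RYGB with an RL of 30 cm at 16 wk of age. The GK-Sham-PF group was sham-operated and pair-fed, at the lowest food intake of the bypass groups. Unoperated, age-matched Wistar rats were the normal controls. All rats were male, and tissue was taken 14 wk after surgery following an overnight fast. Each group had 5 rats with 1 single-colour array each, 15 arrays in all. Wistar rats differed from GK-Sham-PF rats in strain, operation and feeding together, and these cannot be told apart. An RL after bypass receives food but no bile or pancreatic juice, and the samples were pieces of gut rather than sorted cells, so fewer cells of a type and less RNA per cell cannot be told apart.

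The arrays lay on 4 slides. Wistar 2 to 5 were on slide A, and GK-Sham-PF 1 to 3 were on slide B beside Wistar 1. GK-S-30 1 and 2 shared slide C with GK-Sham-PF 4 and 5, and GK-S-30 3 to 5 were on slide D. Wistar 3 and GK-Sham-PF 5 were dimmer than the other arrays, with 75th percentiles of signal of 206.6 and 208.4 against 301.9 to 357.2. The share of probes well above background was 66.72% to 74.77%. Intestinal epithelium was present in every sample: all 13 epithelial markers were above background on all 15 arrays, and their mean log2 signal was 14.27 to 14.81. Smooth muscle markers differed with the operation, and their values are given beside the results. After RYGB, 0 of 7 tested adipocyte genes, 1 of 8 immune genes and 1 of 5 goblet cell genes passed the test (limma). The counts were 1 of 4 pancreatic acinar genes, 0 of 3 gastric genes and 0 of 5 proliferation genes for the other lists. Of all tested genes 9.13% passed. At an unadjusted p under 0.05 these list counts were 2, 4, 3, 3, 0 and 1, beside 22.1% of all tested probes. The adipocyte genes had a median log2 difference of -0.64 after RYGB. Their mean log2 signal was uneven within groups: it was 9.39 on Wistar 1 and 7.5 to 7.94 on the other Wistar arrays, 9.06 to 9.40 on GK-Sham-PF 2 to 4 but 7.85 and 8.27 on GK-Sham-PF 1 and 5, and 7.85 to 8.97 in GK-S-30 rats. Of the listed adipocyte markers, Adipoq, Cfd, Fabp4, Cidea, Cidec and Lipe were above background on every array. Retn was above it on 4 of 5 Wistar arrays and on every array of both GK groups. Plin1 was above it on 3 Wistar arrays, 4 of the sham rats and 1 after RYGB, and Lep on no array.

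De novo lipogenesis starts in the cytosol with citrate. ATP citrate lyase (Acly) splits citrate into acetyl-CoA, acetyl-CoA carboxylase (Acaca in the cytosol, Acacb at the mitochondrial surface) makes malonyl-CoA, and fatty acid synthase (Fasn) builds palmitate with NADPH that malic enzyme (Me1) helps to supply. Elovl6 lengthens palmitate to stearate, stearoyl-CoA desaturases (Scd1, Scd2) put in the delta-9 double bond that gives oleate and palmitoleate, and Fads1 and Fads2, the delta-5 and delta-6 desaturases, act on polyunsaturated fatty acids. Mcat serves the separate fatty acid synthesis pathway of mitochondria. In liver and gut the cytosolic genes are known targets of the sterol regulatory element-binding proteins (SREBPs), together with liver X receptor and ChREBP, and fasting is known to lower them.

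The Scd2 and Acaca probes are shown because probes of these genes gave different answers. Positions are those of rat build rn4 in the files. The 3 Scd2 probes lie on the plus strand at chr1:249365537-249365596 (A_44_P194152), chr1:249369161-249369220 (A_44_P198396, 3624 bases on) and chr1:249370837-249370896 (A_42_P813567, 5300 bases from the first). The 2 Acaca probes lie at chr10:72677048-72677107 (A_42_P489761) and chr10:72678945-72679004 (A_44_P514379, 1897 bases on). The exon or UTR at each position was not looked up, since no annotation of this build was used. The first probe of each gene is printed whole (60 bases) and the others by their first 30 bases, 5′ to 3′:
Scd2 A_44_P194152: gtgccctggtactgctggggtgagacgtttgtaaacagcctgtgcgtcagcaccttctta
Scd2 A_44_P198396: atgtccggtcccagcagagatacaacctct
Scd2 A_42_P813567: gggatcctcagcagaggagtatttaagtcc
Acaca A_42_P489761: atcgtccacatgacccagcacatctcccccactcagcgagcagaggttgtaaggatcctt
Acaca A_44_P514379: aactgagattgccatattatctgtccactt

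The 250 bases before the start of 4 genes were taken from RefSeq (build GRCr8): Scd2, the member with the largest difference after RYGB; Scd1, its neighbour, for contrast; Me1, with both probes higher; and Insig1, the regulator that rose. They are Scd2 at chr1:253118127-253118376 (plus strand), Scd1 at chr1:253231732-253231981 (minus), Me1 at chr8:96540245-96540494 (minus) and Insig1 at chr4:8057770-8058019 (minus). Capitals mark a CCAAT box (CCAAT), an E-box (CACGTG), a sterol regulatory element core (TCACNCCAC) or a GC box (GGGCGG), each searched on both strands:
Scd2: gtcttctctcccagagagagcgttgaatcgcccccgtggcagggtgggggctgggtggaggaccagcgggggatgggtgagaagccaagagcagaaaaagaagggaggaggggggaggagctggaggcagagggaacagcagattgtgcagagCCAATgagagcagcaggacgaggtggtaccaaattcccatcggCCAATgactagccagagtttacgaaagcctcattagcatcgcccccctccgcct
Scd1: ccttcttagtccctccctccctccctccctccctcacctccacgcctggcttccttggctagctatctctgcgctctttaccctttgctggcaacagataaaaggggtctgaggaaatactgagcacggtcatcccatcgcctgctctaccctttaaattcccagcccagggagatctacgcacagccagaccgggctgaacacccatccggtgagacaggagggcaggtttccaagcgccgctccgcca
Me1: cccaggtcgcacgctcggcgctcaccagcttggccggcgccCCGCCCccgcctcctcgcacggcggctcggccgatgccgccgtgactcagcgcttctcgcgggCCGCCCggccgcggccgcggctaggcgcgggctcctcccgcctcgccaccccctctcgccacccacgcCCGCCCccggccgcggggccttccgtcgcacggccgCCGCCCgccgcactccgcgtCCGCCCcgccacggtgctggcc
Insig1: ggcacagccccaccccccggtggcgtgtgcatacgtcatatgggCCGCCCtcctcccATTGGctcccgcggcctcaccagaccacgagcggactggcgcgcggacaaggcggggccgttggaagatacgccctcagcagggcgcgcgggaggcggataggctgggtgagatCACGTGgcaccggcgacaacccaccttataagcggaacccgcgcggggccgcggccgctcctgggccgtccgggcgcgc
The Scd2 window held 2 CCAAT boxes, 97 and 54 bases before the start, and the Scd1 window held none of the 4 motifs. The Me1 window held 5 GC boxes, and the Insig1 window held a GC box, a CCAAT box on the other strand and an E-box 79 bases before the start. A window was found for 7 of the 11 members. Of these 7, 4 held a CCAAT box and 4 a GC box, while 34% and 30.5% of 33469 promoter windows did. None of the 7 held an E-box or the sterol regulatory element core, which were in 5.59% and 0.974% of all windows.

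RYGB was followed by higher mRNA of Scd2 and Me1 in the RL by every probe, and of Fasn by only 1 of its probes. Acly, Acaca, Elovl6, Fads1, Fads2 and Mcat did not pass the test against sham rats. Of the 16 tested probes, 6 were higher and 0 lower after RYGB than after the sham operation (limma, Benjamini-Hochberg adjusted p under 0.05 over all tested probes). The 6 were all probes of Scd2, both of Me1 and 1 of Fasn. Probes of the same gene were counted separately in these counts and are not independent. Over all tested probes 4.77% were higher and 3.59% lower, 8.36% in all. At an unadjusted p under 0.05 there were 12 member probes, 11 higher and 1 lower, or 75% of the 16, beside 22.1% of all tested probes. The median log2 difference was 0.52 over the 16 member probes and -0.03 over all tested genes. The groups did not overlap for 6 of the 16 probes, as for 8.41% of all probes.

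**Figure D1:**
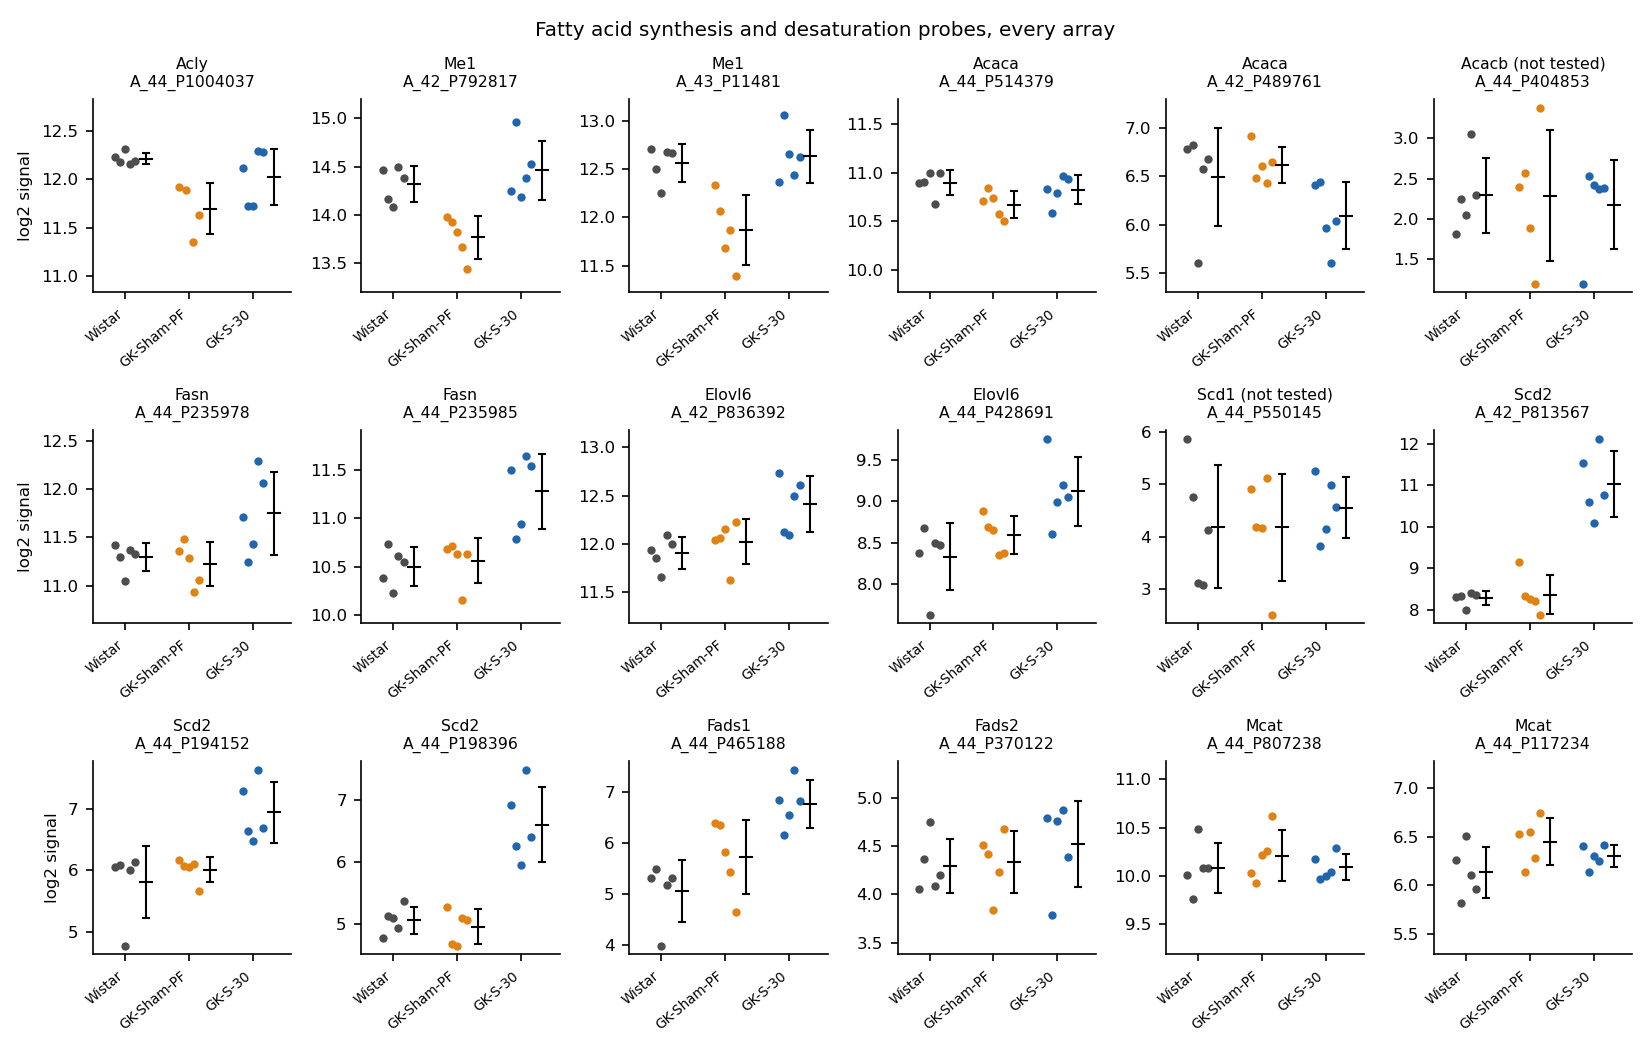
Each panel plots 1 probe: log2 signal after quantile normalization (y axis) on the 5 arrays of each group (points, in replicate order), with the mean and SD beside them; y axes differ between panels. The 5 GK-S-30 points lie above all other points for the 3 Scd2 probes and for Fasn A_44_P235985, and the GK-Sham-PF points lie lowest for Acly and Me1 on average.

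Both supply genes passed the test as lower in sham-operated GK rats than in Wistar rats, and Me1 as higher after RYGB. Log2 signal of the Acly probe A_44_P1004037 was 12.23, 12.18, 12.31, 12.16 and 12.19 in Wistar rats 1 to 5. It was 11.92, 11.89, 11.35 and 11.63 in GK-Sham-PF rats 2 to 5, with the spot of rat 1 left out as an outlier, so that the fit used 4 sham arrays. It was 12.12, 11.72, 11.72, 12.29 and 12.28 in GK-S-30 rats. All 4 sham values lay below the 5 Wistar values, and the GK-S-30 rats overlapped both groups. Acly was lower by a log2 difference of -0.52 (SE 0.15, adjusted p = 0.048) in GK-Sham-PF than in Wistar rats. This call was close to the threshold and held in only 11 of 28 alternative settings. It was lost with 75th percentile scaling, with no filter and without any 1 of the 5 Wistar arrays, among others. The difference ranged from -0.59 to -0.32 over these settings. The difference after RYGB was 0.33 (SE 0.15, 95% interval 0.01 to 0.65, adjusted p = 0.21).

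Me1, the malic enzyme that yields cytosolic NADPH, was measured by 2 probes. With A_42_P792817 the log2 signal was 14.46, 14.17, 14.08, 14.50 and 14.38 in Wistar rats, 13.98, 13.93, 13.82, 13.67 and 13.44 in GK-Sham-PF rats, and 14.25, 14.96, 14.19, 14.38 and 14.53 in GK-S-30 rats. Every sham value lay below every value of the other 2 groups. The level was 1.62-fold higher after RYGB (log2 difference 0.70, SE 0.15, adjusted p = 0.0106) and lower in GK-Sham-PF than in Wistar rats (-0.55, SE 0.15, adjusted p = 0.0332). The second probe, A_43_P11481, read 12.71, 12.50, 12.25, 12.68 and 12.67 in Wistar rats, 12.34, 12.07, 11.68, 11.87 and 11.39 in GK-Sham-PF rats, and 12.37, 13.06, 12.66, 12.44 and 12.62 in GK-S-30 rats. Here too the sham rats were lowest, although sham rat 1 reached above Wistar rat 3. This probe was 1.69-fold higher after RYGB (0.76, SE 0.17, adjusted p = 0.0138) and lower in sham than in Wistar rats (-0.69, SE 0.17, adjusted p = 0.0199). Against Wistar rats the GK-S-30 rats differed by 0.14 (95% interval -0.18 to 0.46) and 0.07 (-0.30 to 0.43), neither past the threshold. Both Me1 comparisons use the same 5 sham arrays, so their opposite signs are not independent.

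Acly and the 2 Me1 probes were the 3 member probes lower in GK-Sham-PF than in Wistar rats, and 0 of 16 were higher. Over all probes 4.14% were lower and 3.74% higher, 7.88% in all. At an unadjusted p under 0.05 there were 5 member probes, 1 higher and 4 lower, or 31.2% of the 16, beside 19.5% of all tested probes. The groups did not overlap for 2 of the 16 probes, beside 9.06% of all probes, and the median member difference was 0.07. These calls rested on single arrays: leaving out Wistar 1, Wistar 4, Wistar 5 or GK-Sham-PF 3 left 0 of the 3, and leaving out GK-Sham-PF 4 or GK-Sham-PF 5 left 1. The log2 differences without 1 array stayed below 0 each time. Among the 28 alternative settings, the Me1 calls held in 19 (A_42_P792817) and 22 (A_43_P11481). Within slide B, with 1 Wistar and 3 sham arrays, they were -0.32 for Acly and -0.56 and -0.68 for Me1, with no test. With slide as a fixed block 0 of the 3 passed, while the share of all tested probes that passed fell from 7.88% to 1.23%. With slide as a random block all 3 passed, beside 9.14% of all tested probes (limma). The slide correlation estimated for that block was -0.045, so it made no allowance for arrays of 1 slide being alike. It cannot decide the part of slide in these calls.

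Markers of other cell types also differed between sham and Wistar rats. Of 7 adipocyte genes 1 was higher, with a list median of 0.77, and of 8 immune genes 2 were higher and 1 lower. Of 4 pancreatic acinar genes 1 was higher: the amylase gene Amy2a3 ranged over 7.74 to 9.03 in sham and 2.87 to 5.76 in Wistar rats. The other 3 tested acinar genes did not pass. Their mean log2 signals in sham and Wistar rats were 9.87 and 10.01 (Ctrb1), 5.82 and 5.81 (Cel), and 4 and 3.11 (Prss1). The listed acinar genes Cpb1 and Pnlip were above background on no array, and Cpa1 on only 1, a Wistar array. No smooth muscle gene of 9 and no epithelial gene of 13 passed (limma, with 0 and 1 at an unadjusted p under 0.05). Of all tested genes 8.39% passed in this comparison. The sham rats with the lowest adipocyte means (rats 1 and 5, 7.85 and 8.27) had Me1 A_42_P792817 at 13.98 and 13.44, the highest and the lowest of their group. The part of these markers in the Acly and Me1 differences was not tested.

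Acaca, the carboxylase that commits acetyl-CoA to fatty acids, did not pass the test in any comparison, and its 2 probes diverged. The bright probe A_44_P514379 read 10.90, 10.91, 11, 10.68 and 11 in Wistar rats, 10.71, 10.84, 10.74, 10.57 and 10.50 in GK-Sham-PF rats, and 10.83, 10.59, 10.79, 10.97 and 10.94 in GK-S-30 rats. The dim probe A_42_P489761 read 6.78, 6.82, 5.6, 6.57 and 6.68, then 6.91, 6.48, 6.60, 6.43 and 6.65, then 6.41, 6.44, 5.96, 5.6 and 6.04 in the same order of groups. The groups overlapped for both probes, and the dim array Wistar 3 was far below the other Wistar arrays for the second. The difference after RYGB was 0.15 (SE 0.10, 95% interval -0.06 to 0.36, adjusted p = 0.414) for the bright probe and -0.53 (SE 0.22, -0.99 to -0.06, adjusted p = 0.165) for the dim one. The gap between the 2 changes was 0.68 (exact permutation test over 10 arrays, two-sided, p = 0.0159, adjusted p = 0.0318 over 8 probe pairs). That gap was 0.44 with normexp background correction (same test, adjusted p = 0.0634). The normexp setting added an offset of 50 to each spot, which by itself makes log2 differences of dim probes smaller. The gap also missed the threshold without any 1 of GK-Sham-PF 1, 3, 4 or 5 or GK-S-30 3, 4 or 5 (0.52 to 0.70). With slide as a fixed block, the dim probe's change was -0.11. Without Wistar 3, the dim probe passed the test as lower after RYGB (-0.53, adjusted p = 0.0395) and than in Wistar rats (-0.62, adjusted p = 0.0117). Acacb, the isoform of oxidative tissue, was above background on 0 of 15 arrays, with log2 readings of 1.20 to 3.38.

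Fasn, which makes palmitate, rose after RYGB by 1 of its 2 probes. A_44_P235985 read 10.38, 10.74, 10.23, 10.61 and 10.55 in Wistar rats, 10.68, 10.72, 10.63, 10.16 and 10.63 in GK-Sham-PF rats, and 11.50, 10.79, 10.94, 11.64 and 11.54 in GK-S-30 rats. All 5 GK-S-30 values lay above the other 10, rats 2 and 3 by little. The level was 1.64-fold higher than in sham rats (log2 difference 0.72, SE 0.17, adjusted p = 0.0189) and 1.72-fold higher than in Wistar rats (0.78, SE 0.17, adjusted p = 0.0041). The other probe, A_44_P235978, read 11.42, 11.30, 11.05, 11.37 and 11.33, then 11.36, 11.48, 11.29, 10.93 and 11.06, then 11.71, 11.24, 11.43, 12.29 and 12.06. GK-S-30 rats 1, 4 and 5 were above all others with this probe too, while rats 2 and 3 lay among the controls. Its differences were 0.52 (SE 0.18, adjusted p = 0.0833) against sham and 0.45 (SE 0.18, adjusted p = 0.0753) against Wistar rats. The changes of the 2 probes differed by -0.19 (exact permutation p = 0.0873, adjusted p = 0.14). Sham and Wistar rats differed by 0.06 and -0.07. The files give no position for either probe. The call against sham rats was lost without GK-S-30 5, with slide as a fixed block and with adjusted Tukey p-values.

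Elovl6, the elongase of palmitate, was higher in GK-S-30 than in Wistar rats and lay between in sham rats. A_42_P836392 read 11.94, 11.86, 11.66, 12.09 and 12.00 in Wistar rats, 12.04, 12.06, 12.16, 11.63 and 12.23 in GK-Sham-PF rats, and 12.73, 12.12, 12.09, 12.50 and 12.61 in GK-S-30 rats. A_44_P428691, whose position spans chr2:227047594-227052367 and so crosses at least 1 splice junction, read 8.38, 8.68, 7.63, 8.5 and 8.47, then 8.89, 8.69, 8.66, 8.35 and 8.37, then 9.76, 8.60, 8.99, 9.20 and 9.06. Rats 2 and 3 (first probe) and rat 2 (second) of the GK-S-30 group reached down into the other groups. Against Wistar rats the differences were 0.50 (SE 0.15, adjusted p = 0.0212) and 0.79 (SE 0.21, adjusted p = 0.0142). Against sham rats they were 0.38 (95% interval 0.07 to 0.69, adjusted p = 0.126) and 0.53 (0.07 to 0.98, adjusted p = 0.153). The first call was lost without GK-S-30 1 or GK-S-30 5.

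Scd2 had the largest difference after RYGB of the 16 probes. A_42_P813567 read 8.30, 8.32, 7.99, 8.40 and 8.36 in Wistar rats, 9.14, 8.34, 8.26, 8.20 and 7.88 in GK-Sham-PF rats, and 11.54, 10.60, 10.10, 12.12 and 10.77 in GK-S-30 rats. The lowest GK-S-30 rat stood well above the highest sham rat, and the 5 GK-S-30 rats spread more (SD 0.80) than the sham (0.47) or Wistar rats (0.16). The level was 6.34-fold higher after RYGB (log2 difference 2.66, SE 0.31, 95% interval 2.00 to 3.33, adjusted p = 0.000154) and 6.74-fold higher than in Wistar rats (adjusted p = 1.59e-05). Sham and Wistar rats differed by 0.09 (95% interval -0.58 to 0.75).

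The other 2 Scd2 probes also rose, by less. A_44_P198396 read 4.77, 5.12, 5.09, 4.94 and 5.37 in Wistar rats, 5.28, 4.67, 4.65, 5.10 and 5.07 in GK-Sham-PF rats, and 6.92, 6.26, 5.95, 7.49 and 6.40 in GK-S-30 rats, 3.14-fold higher than in sham rats (1.65, SE 0.24, adjusted p = 0.000623). A_44_P194152 read 6.05, 6.09, 4.77, 6.01 and 6.14, then 6.17, 6.08, 6.06, 6.10 and 5.67, then 7.30, 6.64, 6.48, 7.65 and 6.69, 1.91-fold higher than in sham rats (0.94, SE 0.27, adjusted p = 0.0407). For both probes every GK-S-30 value lay above the other 10, with rat 4 highest and rat 3 lowest on all 3 Scd2 probes. Against Wistar rats these probes were 2.93-fold (adjusted p = 0.000241) and 2.20-fold (adjusted p = 0.00584) higher. With normexp background correction these log2 differences fell from 1.55 to 0.64 and from 1.14 to 0.55, both still past the threshold (adjusted p = 0.00139 and 0.00744). The offset of 50 in that setting by itself makes log2 differences of such dim probes smaller, so the fall does not measure background alone.

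The size of the Scd2 difference rose from the probe at the lowest coordinate to the one at the highest, which on the plus strand is the order from 5′ to 3′. The 3 gaps between the probes' changes were 1.73 (A_42_P813567 over A_44_P194152), 1.01 (A_42_P813567 over A_44_P198396) and 0.71 (A_44_P198396 over A_44_P194152, written as -0.71 in the other direction). Each gave the smallest p that 10 arrays allow (exact permutation test, two-sided, p = 0.00794, adjusted p = 0.0212). The probes also differed in brightness, and the 2 dimmer ones changed less than the brightest (mean log2 signal 9.22). Between those 2, the dimmer A_44_P198396 (mean 5.54) changed more than A_44_P194152 (mean 6.26). With normexp background correction the changes were 0.47, 0.70 and 2.33 from 5′ to 3′, all past the threshold. The gap between the 2 dimmer probes was then -0.23 (same permutation test, adjusted p = 0.0634). The offset of 50 in that setting shrinks the changes of the dimmer probes most, so it cannot decide the size of the gaps. The part of probe brightness in the gaps was not tested. Among 28 alternative settings, A_42_P813567 passed the test against sham rats in 28, A_44_P198396 in 27 and A_44_P194152 in 15. The last call was lost without any 1 of 10 arrays, the 5 sham arrays among them.

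**Figure D2:**
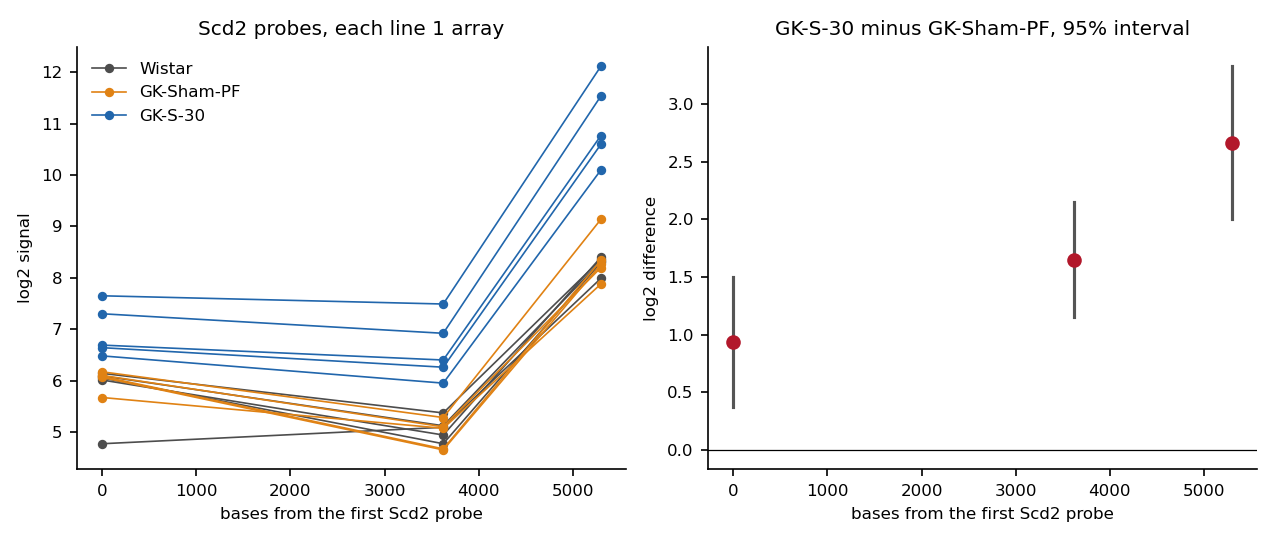
Left, log2 signal (y axis) of the 3 Scd2 probes against their distance in bases from the first (x axis), with 1 line for each of the 15 arrays. Right, the log2 difference of RYGB minus sham rats for each probe with its 95% interval: 0.94, 1.65 and 2.66, with the GK-S-30 lines above all others at each probe.

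Scd1, the related desaturase that is the main form in rodent liver, was near background. Its probe A_44_P550145 was well above background on 3 of 5 Wistar, 4 of 5 GK-Sham-PF and 4 of 5 GK-S-30 arrays and was not tested. It read 5.87, 4.76, 3.12, 3.07 and 4.12 in Wistar rats, 4.90, 4.18, 4.17, 5.11 and 2.51 in GK-Sham-PF rats, and 5.26, 3.83, 4.14, 4.98 and 4.56 in GK-S-30 rats. The 3 groups overlapped throughout. Levels of Scd1 and Scd2 were not set against each other, since probes differ in brightness.

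Fads1 differed most clearly from Wistar rats. Its probe, A_44_P465188, read 5.32, 5.49, 3.99, 5.18 and 5.32 in Wistar rats, 6.39, 6.35, 5.83, 5.43 and 4.64 in GK-Sham-PF rats, and 6.85, 6.16, 6.55, 7.44 and 6.82 in GK-S-30 rats. All GK-S-30 rats lay above all Wistar rats, and GK-S-30 rat 2 lay among the sham rats. The level was 3.26-fold higher than in Wistar rats (log2 difference 1.71, SE 0.35, adjusted p = 0.00244). Against sham rats the difference was 1.04 (SE 0.35, 95% interval 0.29 to 1.78, adjusted p = 0.0834), and that of sham from Wistar rats was 0.67 (-0.08 to 1.41, adjusted p = 0.319). With normexp background correction the difference was 0.78 from Wistar rats (adjusted p = 0.000687) and 0.51 from sham rats, where it then passed the test (adjusted p = 0.03). The offset of 50 in that setting makes both the differences and the spread of dim probes smaller.

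Fads2 was dim. A_44_P370122 read 4.06, 4.36, 4.75, 4.09 and 4.20 in Wistar rats, 4.51, 4.42, 3.84, 4.23 and 4.67 in GK-Sham-PF rats, and 4.79, 3.79, 4.76, 4.87 and 4.39 in GK-S-30 rats, where 4 of 5 arrays were above background. The groups overlapped, and the difference after RYGB was 0.19 (95% interval -0.26 to 0.63, adjusted p = 0.669).

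Mcat, the malonyl transferase of mitochondria, showed no difference past the threshold. A_44_P807238 read 10.01, 9.76, 10.49, 10.08 and 10.08 in Wistar rats, 10.03, 9.93, 10.22, 10.26 and 10.62 in GK-Sham-PF rats, and 10.18, 9.97, 10.00, 10.04 and 10.29 in GK-S-30 rats. A_44_P117234 read 6.26, 5.82, 6.51, 6.11 and 5.96, then 6.53, 6.14, 6.55, 6.28 and 6.75, then 6.41, 6.14, 6.30, 6.25 and 6.42. The differences after RYGB were -0.12 (95% interval -0.42 to 0.18) and -0.15 (-0.44 to 0.15), so that a change of the size seen for Me1 lay outside both intervals. The 2 probes' changes differed by 0.03 (exact permutation p = 0.786).

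Against Wistar rats, 7 of the 16 probes were higher in GK-S-30 rats and 0 lower: 1 of Fasn, 2 of Elovl6, 3 of Scd2 and the Fads1 probe. Over all probes 11.9% were higher and 12.2% lower, 24.1% in all. The groups did not overlap for 5 of the 16, as for 18.3% of all probes. The median member difference was 0.34. At an unadjusted p under 0.05 there were 8 member probes, all higher, or 50% of the 16, beside 36.5% of all tested probes. This comparison shares its GK-S-30 arrays with the one against sham rats. The 3 Scd2 probes and 1 Fasn probe were higher than in both control groups. Me1 passed against sham rats and not against Wistar rats, where its intervals reached up to 0.46 and 0.43.

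**Figure D3:**
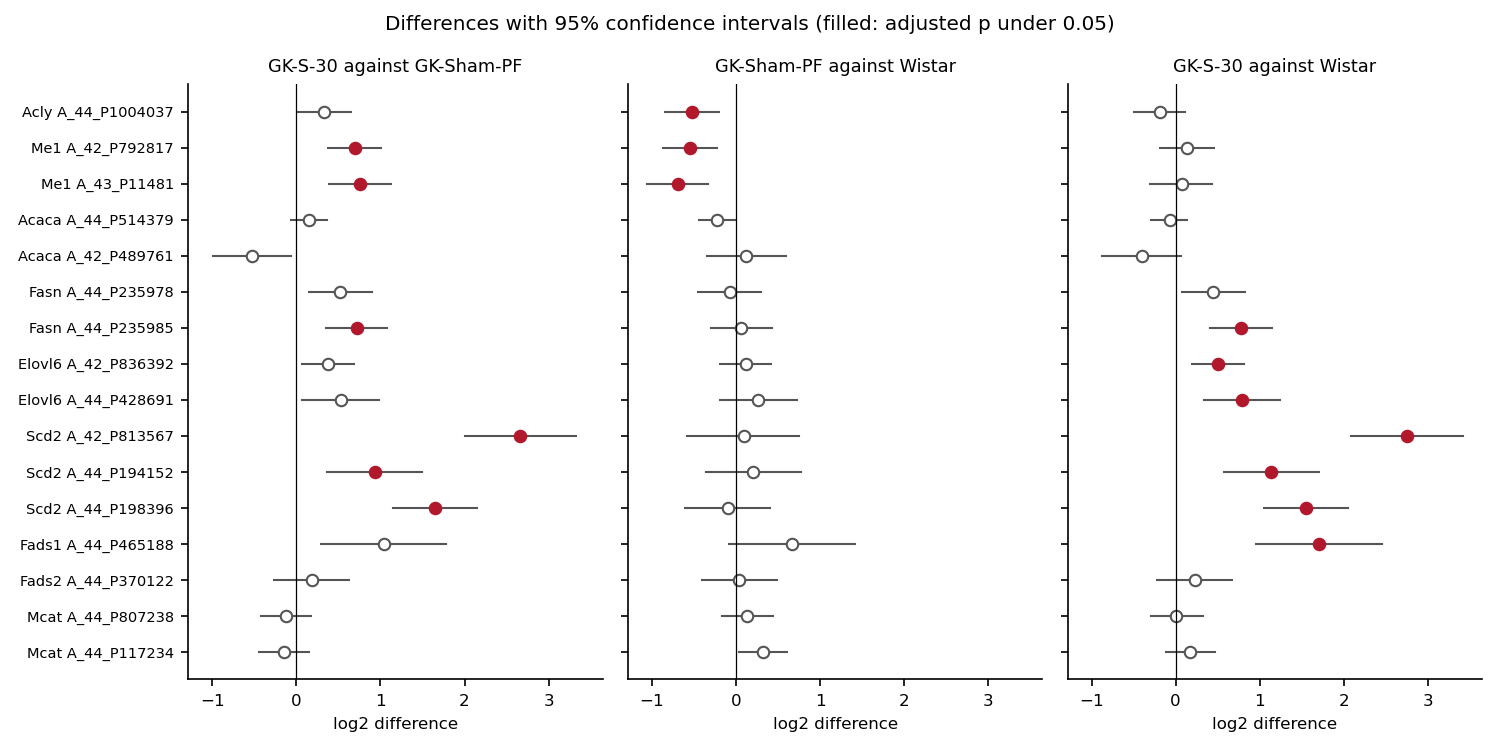
Log2 differences (x axis) of the 16 tested probes in the 3 comparisons, with 95% intervals as lines; filled points passed an adjusted p of 0.05. In the left panel (RYGB against sham) 6 points are filled, all above 0, in the middle one (sham against Wistar) 3, all below 0, and in the right one (RYGB against Wistar) 7, all above 0.

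Among the GK-S-30 rats, the same rat was often highest or lowest for several member genes. Rat 4 had the highest signal of its group for 9 of the 16 probes and rat 2 the lowest for 9. Me1 ran otherwise, with rat 2 highest on both probes. Probes of the same gene were counted separately, and rat 4's 9 include all Scd2 and Fasn probes. The array of GK-S-30 rat 2 had the lowest share of probes well above background, 66.72%. The order of rats was counted over member probes only, so an effect of the whole array was not tested. Among Wistar rats the dim array 3 was lowest for 10 of the 16 probes and highest for 5. Among sham rats the dim array 5 was lowest for 6 and highest for 4.

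Slide and group were partly tied. Slide C alone held both GK groups, with 2 arrays each, and within it the differences after RYGB were 3.03, 1.08 and 1.5 for Scd2 A_42_P813567, A_44_P194152 and A_44_P198396. They were 1.05 and 1.08 for Me1, 0.48 and 0.75 for Fasn, 0.50 and 0.82 for Elovl6, 1.47 for Fads1 and 0.43 for Acly, with no test. With slide as a fixed block, which leaves the comparison to these 4 arrays, 2 member probes passed, beside 1.92% of all probes: Scd2 A_42_P813567 (adjusted p = 0.0128) and Me1 A_42_P792817 (adjusted p = 0.0363). Against Wistar rats 0 passed under that block, beside 1.57% of all probes (24.1% without the block). The differences were 3.31 (adjusted p = 0.0636) for Scd2 A_42_P813567 and 2.34 (adjusted p = 0.144) for Fads1. With slide as a random block 6 member probes passed after RYGB and 7 against Wistar rats, beside 9.28% and 27.1% of all probes. The slide correlation estimated for the random block was -0.045. That block therefore made no allowance for likeness within a slide and cannot decide the part of slide.

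Smooth muscle markers moved with the operation. Of 10 listed, 9 were tested and 6 of these were higher after RYGB than after sham, with a median log2 difference of 1.21. Their mean log2 signal was 12.69, 12.93, 13.04, 12.80 and 12.83 in GK-S-30 rats 1 to 5. It was 11.42, 11.47, 11.40, 12.26 and 11.07 in GK-Sham-PF rats and 11.33 to 12.04 in Wistar rats. The GK-S-30 rats were thus above all others, and sham rat 4 was highest among the controls. Sham rat 4 had Scd2 A_42_P813567 at 8.20 and Fasn A_44_P235985 at 10.16, the lowest Fasn value of that probe. Within GK-S-30, the rat with the lowest muscle mean (rat 1, 12.69) had Scd2 at 11.54 and the one with the highest (rat 3, 13.04) had it at 10.10. The part of muscle content in the member differences was not tested. The epithelial means were 14.39 to 14.67 after RYGB and 14.27 to 14.81 after sham, and 1 of 13 epithelial genes passed the test.

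**Figure D4:**
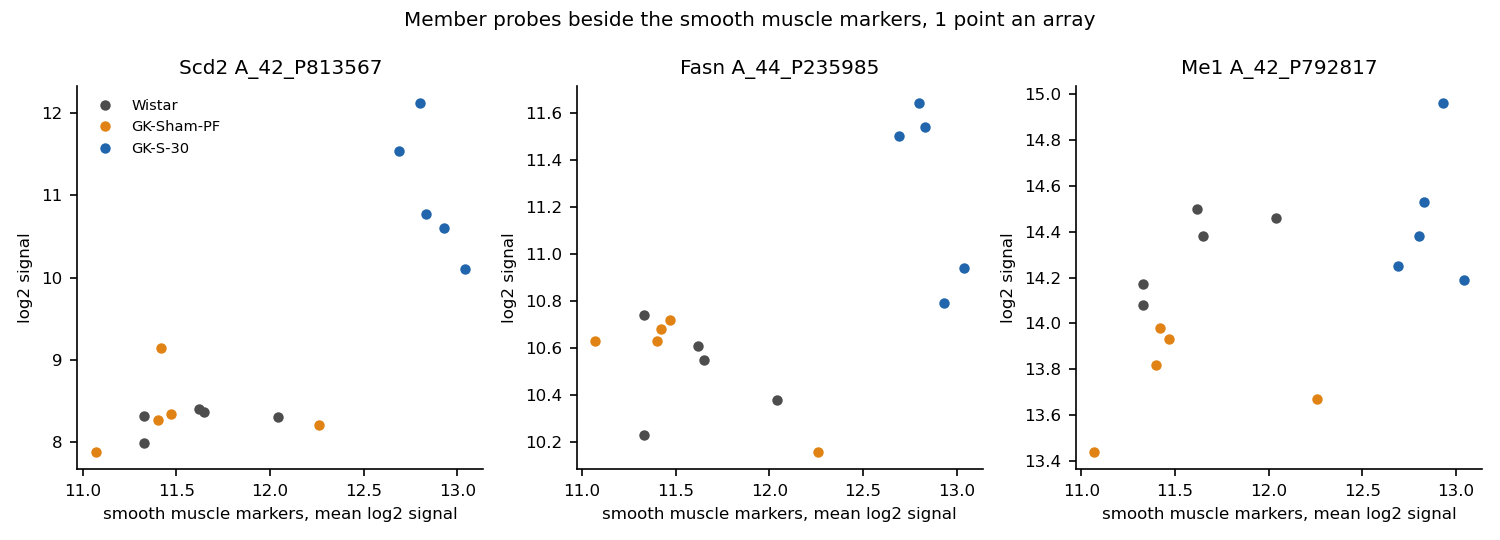
Log2 signal (y axis) of Scd2 A_42_P813567, Fasn A_44_P235985 and Me1 A_42_P792817 against the mean log2 signal of 9 smooth muscle markers (x axis), 1 point for each of the 15 arrays. The 5 GK-S-30 arrays lie between 12.69 and 13.04 on the x axis, to the right of the control arrays, and sham rat 4 at 12.26 has member values among or below those of the other controls.

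Other genes of the pathway were counted in the same way. Of 104 listed genes of supply, regulation, elongation, desaturation, mitochondrial synthesis, malonyl-CoA handling and esterification, 93 were tested, each by its brightest tested probe. After RYGB 12 were higher and 2 lower (13 and 6 without the 2 dim arrays), beside 4.93% and 4.19% of all tested genes (9.13% in all). The median log2 difference of the 93 was 0.07. Between GK-Sham-PF and Wistar rats 3 were higher and 6 lower, beside 3.96% and 4.42% of all genes (8.39% in all), with a median of -0.08.

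Of the 18 lipogenic regulators, 1 was higher and 0 lower after RYGB. It was Insig1, the endoplasmic reticulum protein that holds back the SREBP escort Scap and is itself an SREBP target. Its log2 signal was 14.02, 14.46, 13.79, 14.27 and 14.17 in Wistar rats, 13.83, 13.78, 13.89, 13.27 and 13.85 in GK-Sham-PF rats, and 15.36, 15.69, 15.49, 15.55 and 15.31 in GK-S-30 rats. The GK-S-30 rats stood above all others, and the level was 3.38-fold higher than in sham rats (1.76, SE 0.14, adjusted p = 6.82e-06). Srebf1, which encodes SREBP-1, ranged over 9.95 to 10.95 in sham and 10.45 to 11.11 in GK-S-30 rats, with a difference of 0.13 (adjusted p = 0.719). Srebf1 was lower in sham than in Wistar rats (-0.65, adjusted p = 0.0305), where it ranged over 11.01 to 11.47.

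The other regulators gave differences after RYGB that did not pass. Scap gave -0.07 (adjusted p = 0.668), Mlxipl, which encodes ChREBP, -0.44 (adjusted p = 0.234) and Nr1h3, the liver X receptor alpha, -0.42 (adjusted p = 0.113). Thrsp, a lipogenic protein also known as Spot 14, spread widely: it ranged over 4.40 to 8.18 in Wistar, 4.91 to 8.0 in GK-Sham-PF and 5.10 to 6.87 in GK-S-30 rats, with a difference after RYGB of -1.23 (SE 0.73, adjusted p = 0.349). The adipocyte marker Adipoq was high on the same arrays. Thrsp was 8.18 on Wistar 1 and 7.89, 7.84 and 8.0 on GK-Sham-PF 2 to 4, where Adipoq was 10.08, 9.88, 9.61 and 9.72. On GK-Sham-PF 1 the values were 4.91 for Thrsp and 5.74 for Adipoq. The part of adipocyte RNA in the Thrsp values was not tested.

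Of 13 genes of citrate and acetyl-CoA supply, 3 were higher after RYGB and 0 lower, with a median of 0.17. Acss1, the mitochondrial acetyl-CoA synthetase, ranged over 10.35 to 11.62 in sham and 11.70 to 12.39 in GK-S-30 rats (1.07, adjusted p = 0.00424). Pc, the pyruvate carboxylase that replenishes oxaloacetate, ranged over 11.93 to 12.28 in Wistar, 11.23 to 11.76 in sham and 12.11 to 12.63 in GK-S-30 rats. Like Me1, it was lower in sham than in Wistar rats (-0.62, adjusted p = 0.00418) and higher after RYGB (0.87, adjusted p = 0.000527), with the sham arrays shared. Acss2, the cytosolic acetyl-CoA synthetase, was higher after RYGB by 0.59 (adjusted p = 0.0455). Cs, citrate synthase, was higher in sham than in Wistar rats by 0.33 (adjusted p = 0.0473).

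Of 9 genes of NADPH supply, 2 were higher after RYGB: Tkt (0.65, adjusted p = 0.00492) and Taldo1 (0.29, adjusted p = 0.0248), enzymes of the non-oxidative pentose phosphate branch. Idh2, the mitochondrial isocitrate dehydrogenase, was lower in sham than in Wistar rats (-0.40, adjusted p = 0.0431). None of the 7 tested genes of the elongation cycle passed after RYGB (2 at an unadjusted p under 0.05, limma), and the median was -0.03. Of 9 other desaturases and electron donors, 1 was higher: Degs2, a sphingolipid desaturase and hydroxylase (0.33, adjusted p = 0.0295). Degs1, the dihydroceramide desaturase, was higher in sham than in Wistar rats (0.36, adjusted p = 0.0296).

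Of 9 genes of mitochondrial fatty acid synthesis, 1 was lower after RYGB: Acsf3, the malonyl-CoA synthetase of mitochondria, ranged over 12.93 to 13.29 in sham and 12.33 to 12.75 in GK-S-30 rats (-0.58, adjusted p = 0.00435). Oxsm, the ketoacyl synthase of that pathway, was higher in sham than in Wistar rats (0.63, adjusted p = 0.0103). Of 10 genes for AMP-activated kinase, malonyl-CoA and biotin handling, 1 was higher after RYGB: Prkag1, a regulatory kinase subunit (0.53, adjusted p = 0.0211). In this list 2 were lower in sham than in Wistar rats. Prkab2, another kinase subunit, ranged over 6.60 to 7.46 in Wistar and 5.06 to 5.53 in sham rats (-1.61, adjusted p = 5.13e-06), and Mlycd, malonyl-CoA decarboxylase, differed by -0.85 (adjusted p = 0.00177).

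The list of acyl-CoA synthetases and esterification genes, among the longest, gave the most calls of these lists after RYGB. Of 18 tested, 4 were higher and 1 lower after RYGB, beside 4.93% and 4.19% of all tested genes. Acsl3, a long-chain acyl-CoA synthetase of the endoplasmic reticulum and lipid droplets, ranged over 10.11 to 10.71 in sham and 11.37 to 11.88 in GK-S-30 rats (1.08, adjusted p = 0.00153). Acsl1, another long-chain acyl-CoA synthetase, was higher by 0.71 (adjusted p = 0.00106), and Agpat4, an acyltransferase, by 0.70 (adjusted p = 0.0261). Lpin1, a phosphatidate phosphatase, was higher by 0.65 (adjusted p = 0.00315), and is named after its value was seen, as the fifth of this list by size. Dgat2, which makes triglyceride from diglyceride, ranged over 14.59 to 15.10 in Wistar, 14.15 to 14.87 in sham and 13.64 to 13.97 in GK-S-30 rats. It was lower in sham than in Wistar rats (-0.48, adjusted p = 0.0475) and lower again after RYGB (-0.65, adjusted p = 0.0103).

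**Figure D5:**
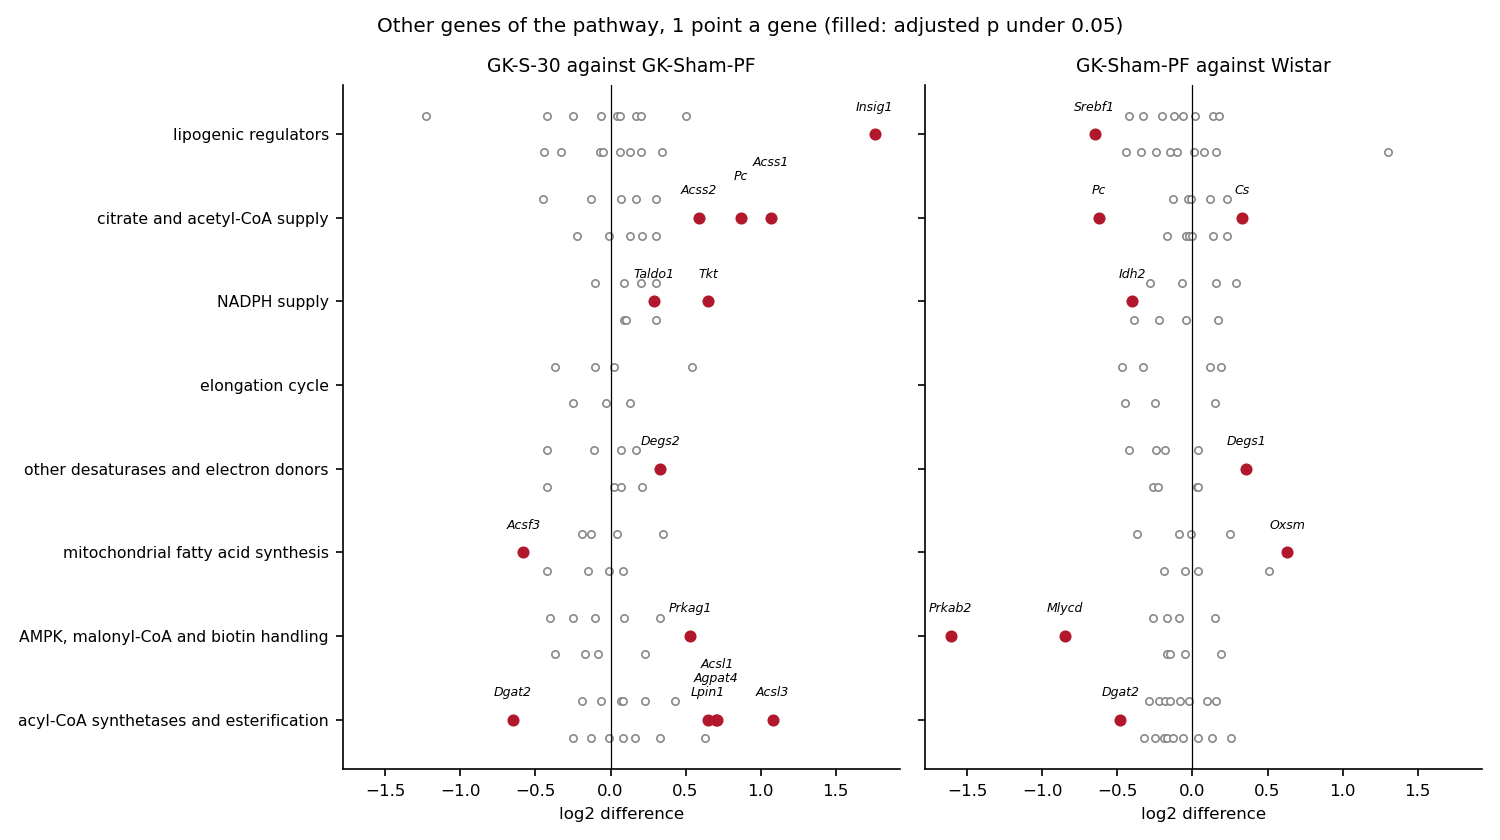
Log2 difference (x axis) of each of the 93 tested genes by list (y axis), for RYGB against sham (left) and sham against Wistar (right); filled, named points passed an adjusted p of 0.05. Insig1 at 1.76 is farthest to the right in the left panel, and Prkab2 at -1.61 farthest to the left in the right panel.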

How the data were processed

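RNA of 15 gut segments, 1 rat each, was hybridised to single-colour Agilent whole rat genome arrays. The deposited spot intensity values (processed signal, background-subtracted) came from Feature Extraction, 10.7 in the submitters' processing notes. Per the methods, the authors quantile-normalized them in GeneSpring. Their deposited log2 table is quantile-normalized too: its columns share 1 distribution to within 0.00393. Of 45018 spots, 43379 were not controls and 0 of these were saturated. Outlier spots (52 to 109 an array) were left out, spots of a probe averaged (41012 probes), log2 taken and arrays quantile-normalized. Probes were named through RefSeq accessions or symbols, and 941 kept the file's name. limma 3.58.1 (R 4.3.3) fitted the 3 groups over all 17029 tested probes, with Benjamini-Hochberg adjustment at 0.05. Groups came from the labels. Quantile normalization gives every array the same distribution, so a shift of most genes together would not be seen. The number of arrays limits precision: SEs of member differences were 0.10 to 0.35.

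Member genes and lists were chosen with earlier results of these data known. The named genes were all member probes, at most 4 passing genes a list and comparison by size of difference, and 6 regulators. Changes of 2 probes of 1 gene were compared by an exact permutation test over 10 arrays. The fit was tested on simulated data. Alternatives covered normalization, normexp background correction (offset 50), the deposited log2 table, filters, slides and the replicate number. They also covered the methods' ANOVA with Tukey comparison and left-out arrays. The labels number 5 replicates a group, and the methods describe RNA extracted from each sample individually, so each array was taken as 1 rat. The tests set group differences against the spread between arrays of a group. Each group lay on more than 1 slide, so this spread may hold slide differences too.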

Additional observations from a re-analysis of the deposited data

Results flagged for a closer look

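In 129 sets of 4 or 5 values (a probe in a group; lists included), 18 had 1 array set apart from the others beyond Dixon's 95% critical value, and chance alone sets apart about 1 in 20. The ratio given is the gap to the nearest array over the whole range. No explanation was weighed.

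The dim array Wistar 3 was set apart as lowest for Acaca A_42_P489761 (log2 signal 5.6, ratio 0.798), Elovl6 A_44_P428691 (7.63, ratio 0.712), Scd2 A_42_P813567 (7.99, ratio 0.744), Scd2 A_44_P194152 (4.77, ratio 0.902), Fads1 (3.99, ratio 0.796) and Mlycd (10.12, ratio 0.766). The other dim array, GK-Sham-PF 5, was lowest for Scd2 A_44_P194152 (5.67, ratio 0.777) and Mlxipl (9.86, ratio 0.795) and highest for Cs (15.29, ratio 0.733).

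GK-Sham-PF 4, the sham rat with the most smooth muscle signal, was lowest for Fasn A_44_P235985 (10.16, ratio 0.825) and Insig1 (13.27, ratio 0.822). GK-S-30 1 was lowest for Acacb, where no array was above background (1.20, ratio 0.883), and highest for Prkag1 (9.62, ratio 0.869) and Acsl3 (11.88, ratio 0.763). GK-S-30 4 was highest for Mlxipl (10.77, ratio 0.825) and GK-S-30 3 lowest for Oxsm (9.29, ratio 0.742). Wistar 1 was highest for Thrsp (8.18, ratio 0.738) and lowest for Oxsm (8.65, ratio 0.849).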

How the results depend on the processing

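With slide as a fixed block, 2 member probes and 6 pathway genes passed after RYGB (6 and 14 as reported), 0 and 1 between sham and Wistar rats (3 and 9), and 0 member probes in GK-S-30 against Wistar rats (7). The shares of all tested probes passing under that block were 1.92%, 1.23% and 1.57% (8.36%, 7.88% and 24.1% as reported). A random slide block gave 6, 3 and 7 member probes, with an estimated slide correlation of -0.045. With a correlation below 0 it made no allowance for likeness within a slide, so these counts cannot decide the part of slide. Adjusted Tukey p-values gave 2 member probes after RYGB, and 0 member probes and 4 pathway genes between sham and Wistar rats. Unadjusted Tukey p-values gave 15 pathway genes there. Leaving out 1 array gave 4 to 8 member probes and 9 to 15 pathway genes after RYGB (9 without GK-Sham-PF 2), 0 to 3 and 4 to 10 between sham and Wistar rats, and 6 to 8 member probes in GK-S-30 against Wistar rats. The fewest pathway genes between sham and Wistar rats (4) came without Wistar 5 or without GK-Sham-PF 2. Without both dim arrays, an alternative chosen after seeing the data, the member counts were 6, 2 and 8. The 8 in GK-S-30 against Wistar rats were 7 higher and 1 lower. In that setting 19 pathway genes passed after RYGB, 13 higher and 6 lower (12 and 2 as reported). Unadjusted Tukey p-values gave 21 there, 16 higher and 5 lower. The cause of these differences was not tested.

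Replicate numbers did not pair the rats: same-number correlations were -0.29 to 0.20, 3 of 15 over 0.1, and 1 sample correlated best with its own number. With the replicate number as a block, 9 pathway genes passed after RYGB, and 1 member probe and 5 pathway genes between sham and Wistar rats.

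No member difference or probe gap that passed the test changed sign under the alternatives; signs of single pathway genes were not followed. Among those that did not pass, normexp turned Fads2 (sham against Wistar) to -0.05 and the probe gaps of Elovl6 to 0.01 and Mcat to -0.09. The slide block turned Fads2 after RYGB to -0.16, and between sham and Wistar rats Acaca A_42_P489761 to -0.11 and Scd2 A_44_P198396 to 0.10. In GK-S-30 against Wistar rats it turned Acly to 0.11, Acaca A_44_P514379 to 0.04 and Mcat to -0.31 and -0.09. Leaving out both dim arrays turned Acaca A_42_P489761 to -0.11 and Fasn A_44_P235985 to -0.02 between sham and Wistar rats, and Me1 A_43_P11481 to -0.01 in GK-S-30 against Wistar rats. Values with 1 array left out crossed 0 for the following. Between sham and Wistar rats, Fads2 ranged from -0.05 to 0.16, Acaca A_42_P489761 from -0.10 to 0.21, Scd2 A_44_P194152 from -0.06 to 0.29 and Scd2 A_42_P813567 from -0.10 to 0.21. In GK-S-30 against Wistar rats, Mcat A_44_P807238 ranged from -0.07 to 0.11 and Me1 A_43_P11481 from -0.04 to 0.13. The probe gap of Mcat ranged from -0.04 to 0.08 and that of Me1 from -0.13 to 0.01.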
